A study of Macaca mulatta and Mus musculus and Rattus norvegicus with 12 samples.

Results

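The bone morphogenetic protein (BMP) ligands BMP2, BMP3, BMP4, BMP5, BMP6 and BMP7 and the secreted BMP antagonists NOG, GREM1 and CHRD were followed in bone enriched for osteocytes, taken from the calvaria or the tibia. These 9 genes were taken by symbol, with earlier results of these data known. Each of them had 1 row in every species' table, among 39066 rows in mouse, 35883 in rat and 29600 in rhesus macaque. The study sequenced polyadenylated RNA to ask how the transcriptome of osteocytes differs between the skull and a weight-bearing long bone. There were 4 mouse libraries (calvaria M4 and M8, tibia M5 and M7), 2 rat libraries (calvaria R1, tibia R3) and 6 macaque libraries (calvaria G1, G3 and T1, tibia G2, G4 and T2). The labels name no treatment or genetic change. The mice were C57BL6 animals of 4 months, and each library pooled bones of several mice. The rats were Wistar animals of 6 months, and the single library of each site was a pool. Each macaque library came from 1 animal. The labels give the macaques' age as 4 to 6 months, whereas the methods give the same figures in years. The methods state that the animals were female and that calvaria and tibia were taken as pairs, but the labels do not name the pairs.

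BMPs are secreted growth factors that bind type I and type II serine/threonine kinase receptors, which phosphorylate SMAD1, SMAD5 and SMAD9. They were named for their ability to induce bone. Noggin (NOG), gremlin 1 (GREM1) and chordin (CHRD) bind the ligands outside the cell and keep them from their receptors, and BMP3 is itself known to oppose the signal of the osteogenic BMPs.

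Reads on named genes numbered 12233256 to 16826535 per rodent library and 7951585 to 10342459 per macaque library. Levels are given as CPM, the count of reads scaled to a fixed library size, with library sizes corrected by TMM factors in mouse and macaque and left as the total count in rat. A fold change is that of calvaria relative to tibia unless the text says tibia over calvaria. In the edgeR quasi-likelihood test a gene was called at a Benjamini-Hochberg false discovery rate (FDR) under 0.2 and a fold change over 1.1, the thresholds of the study's methods. The study also removed genes that had a zero count in some sample. The main fits here kept them, and that filter was an alternative. In rat, with 1 library per site, the criterion was a log2 ratio past 2 and no test was possible, so its intervals cover counting error only. Within each site the mouse libraries are separate pools and the macaque libraries separate animals, so that the spread in mouse is between pools. By the methods the sites were paired, so that each macaque gave a library of both sites. The main edgeR fits did not model the pairs, and a block for assumed pairs was an alternative. The osteocyte label was checked against DMP1, MEPE, PHEX, SOST, FGF23 and PDPN. MEPE was detected in every library, with 203 to 981 CPM (mouse), 255 and 3726 CPM (rat) or 4608 to 16671 CPM (macaque). In rat FGF23 had no read at either site and SOST had 5 reads in calvaria and 15 in tibia.

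BMP7, a ligand needed for kidney and eye development and able to induce bone, was higher in tibia in all 3 species and had the largest log2 difference between the sites among the 6 ligands in each, except in mouse without M4, where BMP5 (-3.67) and BMP6 (-2.50) exceeded it (-2.27). In mouse BMP7 had 10.9 CPM in M4 and 7.24 CPM in M8 of the calvaria, and 31.0 CPM in M5 and 37.8 CPM in M7 of the tibia. In rat it had 0.351 CPM in calvaria (5 reads) and 8.83 CPM in tibia (108 reads). In macaque it had 15.4 CPM in G1, 14.5 CPM in G3 and 26.5 CPM in T1 of the calvaria, against 91.4 CPM in G2, 87.8 CPM in G4 and 99.9 CPM in T2 of the tibia. Every tibia library was above every calvaria library of its species. In the edgeR fit tibia was 3.78-fold calvaria in mouse (log2 fold change -1.92, SE 0.314, n = 2 per site, edgeR quasi-likelihood test with Benjamini-Hochberg adjustment, adjusted p = 0.00730). In macaque it was 4.93-fold (log2 fold change -2.30, SE 0.224, n = 3 per site, edgeR adjusted p = 7.30e-10). In rat the tibia was 21.2-fold the calvaria with 1 read added (log2 ratio -4.40, exact 95% interval from -6.31 to -3.39). The study picked BMP7 for its direction in these same samples, so that its direction is no independent evidence. The mouse call depended on the genes tested: the adjusted p rose to 0.260 over symbols with a read in all 3 species, to 0.261 with edgeR's expression filter, and to 0.293 without genes that had a zero count, while the log2 fold change stayed between -1.92 and -1.91. The last of these filters is part of the study's methods, yet the study reports BMP7 as differentially expressed in mouse, with another version of edgeR. The reason for this difference was not tested. In mouse the Bmp7 gene (ENSMUSG00000008999.7) lies on chromosome 2 of GRCm38, from 172868012 to 172940321 on the minus strand.

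**Figure D1:**
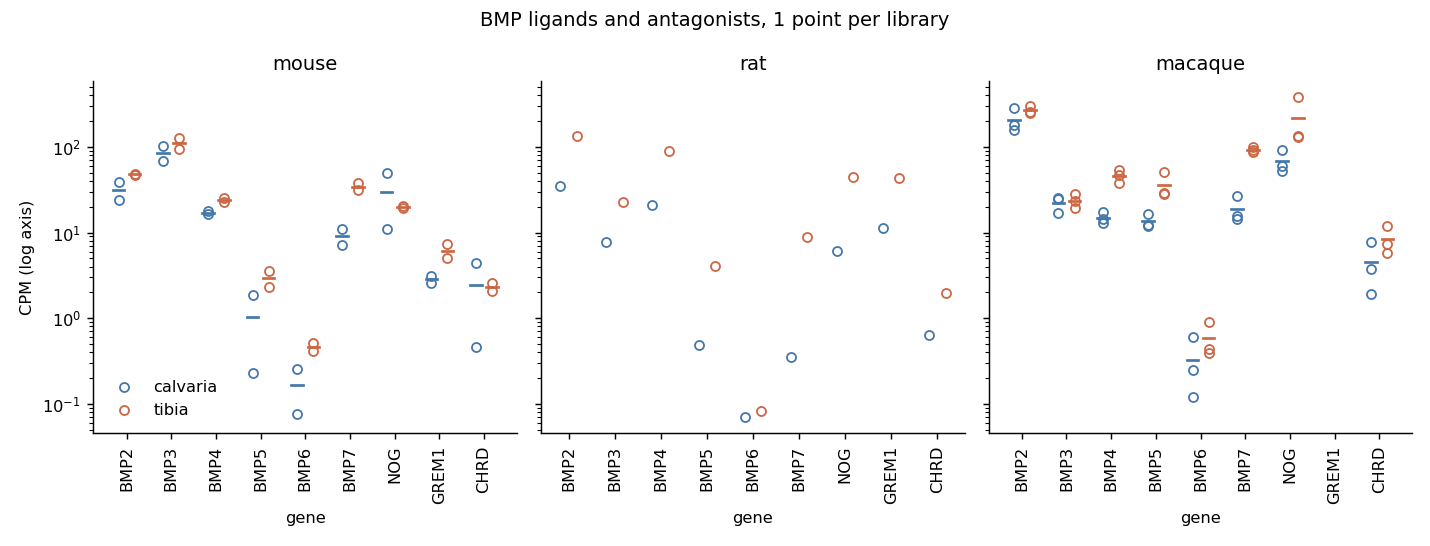
CPM (log axis) of each BMP ligand and antagonist in each library, with calvaria in blue and tibia in orange and a bar at the mean where there are 2 or more libraries. BMP7 in tibia lies above calvaria in each species, mouse NOG ranges from 11.1 to 49.1 CPM in calvaria, and macaque GREM1 has no point because it had no read.

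BMP4, a ligand close in sequence to BMP2, was higher in tibia in macaque and in rat. Macaque BMP4 had 14.3, 12.9 and 17.3 CPM in calvaria G1, G3 and T1, and 53.2, 46.5 and 37.6 CPM in tibia G2, G4 and T2. The sites did not overlap, and in the fit tibia was 3.07-fold calvaria (log2 fold change -1.62, SE 0.234, n = 3 per site, edgeR adjusted p = 2.47e-06). Rat BMP4 had 21.1 CPM in calvaria (301 reads) and 88.7 CPM in tibia (1085 reads), a log2 ratio of -2.07 (exact 95% interval from -2.26 to -1.89). This ratio came to -1.78 with TMM factors, on the other side of the criterion. Mouse BMP4 had 17.6 CPM in M4 and 16.2 CPM in M8, against 25.3 CPM in M5 and 23.0 CPM in M7. Here the sites did not overlap either, but the difference did not pass the test (log2 fold change -0.51, SE 0.282, n = 2 per site, edgeR adjusted p = 0.737).

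BMP5 showed the same order of sites at a lower level. In macaque it had 12.2, 16.6 and 11.9 CPM in calvaria G1, G3 and T1, and 29.1, 28.3 and 50.4 CPM in tibia G2, G4 and T2. The sites did not overlap (log2 fold change -1.41, SE 0.259, n = 3 per site, edgeR adjusted p = 0.000127). In rat BMP5 rested on 7 reads in calvaria and 50 in tibia (log2 ratio -2.89, exact 95% interval from -4.44 to -1.91). In mouse it had 29 and 3 reads in M4 and M8, and 63 and 34 reads in M5 and M7, and did not pass the test (log2 fold change -1.47, SE 0.787, n = 2 per site, edgeR adjusted p = 0.715). M8 decided its size: the log2 fold change was -0.68 without M8 and -3.67 without M4 (edgeR adjusted p = 0.532 and 3.19e-05).

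BMP2, a ligand used to induce bone in the clinic, was abundant at both sites. In macaque it had 180, 155 and 285 CPM in calvaria G1, G3 and T1, and 246, 258 and 299 CPM in tibia G2, G4 and T2. T1 lay above 2 of the 3 tibia libraries, so that the sites overlapped. The macaque difference did not pass (log2 fold change -0.37, SE 0.197, n = 3 per site, edgeR adjusted p = 0.273), but without T1 it did (-0.67, edgeR adjusted p = 0.0275), and so did it with library size alone (-0.58, 0.0405) and with a block for the assumed pairs (-0.42, 0.0625). In mouse BMP2 had 38.6 CPM in M4 and 24.1 CPM in M8, and 46.9 CPM in M5 and 48.7 CPM in M7. Neither tibia library was as low as M4, and the difference did not pass (log2 fold change -0.61, SE 0.286, n = 2 per site, edgeR adjusted p = 0.628). In rat BMP2 had 34.5 CPM in calvaria and 135 CPM in tibia, and its log2 ratio of -1.97 (exact 95% interval from -2.12 to -1.83) stopped just short of the criterion.

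BMP3 did not pass in either replicated species. In mouse it had 103 and 68.0 CPM in M4 and M8, and 94.4 and 128 CPM in M5 and M7, with overlap (log2 fold change -0.38, SE 0.286, n = 2 per site, edgeR adjusted p = 0.860). In macaque it had 24.7, 25.0 and 16.7 CPM in calvaria G1, G3 and T1, and 19.5, 23.4 and 28.0 CPM in tibia G2, G4 and T2. The macaque log2 fold change was -0.094 (SE 0.248, n = 3 per site, edgeR adjusted p = 0.863), and it turned to 0.073 without T1 and to 0.055 without T2. In rat BMP3 had 7.72 CPM in calvaria and 22.8 CPM in tibia (log2 ratio -1.56, exact 95% interval from -1.90 to -1.24).

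BMP6, known from iron metabolism as an inducer of hepcidin in the liver, was near the limit of detection everywhere. It had 1 to 9 reads per library in mouse, 1 read at each site in rat, and 1 to 8 reads in macaque. A difference between the sites was not detectable at this depth (log2 fold change -1.40, SE 1.54 in mouse with n = 2 per site, and -0.80, SE 1.30 in macaque with n = 3, edgeR adjusted p = 0.874 and 0.755), and no ratio is given for rat.

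NOG was higher in tibia in macaque and rat, while the mouse calvaria libraries lay far apart. Among NOG, GREM1 and CHRD it had the highest level per exonic length at both sites of each species. In macaque NOG had 52.0, 60.2 and 92.6 CPM in calvaria G1, G3 and T1, and 130, 134 and 382 CPM in tibia G2, G4 and T2. The sites did not overlap, and T2 stood far above the other tibia libraries. In the fit tibia was 3.15-fold calvaria (log2 fold change -1.66, SE 0.267, n = 3 per site, edgeR adjusted p = 1.67e-05). Without T2 the log2 fold change was -0.94 (edgeR adjusted p = 1.19e-05). In rat NOG had 6.10 CPM in calvaria (87 reads) and 44.8 CPM in tibia (548 reads), a log2 ratio of -2.86 (exact 95% interval from -3.22 to -2.55).

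In mouse NOG had 49.1 CPM in M4 and 11.1 CPM in M8 of the calvaria, and 20.4 CPM in M5 and 19.5 CPM in M7 of the tibia. The calvaria libraries lay on both sides of the tibia libraries. The log2 fold change was 0.60 (SE 0.477, n = 2 per site, edgeR adjusted p = 0.870), and the library decided its sign: it was -0.88 without M4 and 1.29 without M8, each with 1 calvaria library that is assumed to vary like the tibia. M4 also had more of the osteoblast markers than M8 (49259 against 22029 summed CPM over 6 genes). So it was for the fibroblast and periosteum markers (3491 against 1070 over 5 genes) and the osteoclast markers (2222 against 976 over 5 genes). Summed osteocyte (1847 against 1041), chondrocyte (342 against 146), tendon, skeletal muscle and adipocyte markers were higher in M4 too. Endothelial, erythroid, neutrophil, B cell and megakaryocyte markers were higher in M8. In macaque T2 had 137857 summed CPM of the 6 osteoblast markers, against 37956 in G2 and 38116 in G4. Osteoclast (306 against 119 and 98.5) and chondrocyte markers (161 against 33.6 and 27.9) were also higher in T2. So were fibroblast, tendon, adipocyte, erythroid, neutrophil and megakaryocyte markers. Osteocyte markers (7777 against 17308 and 17530) and those of endothelium, skeletal muscle and B cells were lower in T2. The part of these markers in the NOG values was not tested. Mouse Nog (ENSMUSG00000048616.4) lies on chromosome 11 of GRCm38, from 89300638 to 89302332 on the minus strand.

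GREM1 was measured in the rodents alone. In mouse it had 3.07 CPM in M4 and 2.59 CPM in M8, and 7.29 CPM in M5 and 4.99 CPM in M7. The sites did not overlap, but the difference did not pass (log2 fold change -1.12, SE 0.461, n = 2 per site, edgeR adjusted p = 0.503). In rat it had 11.2 CPM in calvaria and 43.5 CPM in tibia, a log2 ratio of -1.96 (exact 95% interval from -2.23 to -1.70). In macaque GREM1 had 0 reads in all 6 libraries, which allows up to 0.291 to 0.376 CPM per library (3 reads). The macaque row covered 555 exonic bases, against 1778 in mouse and 3809 in rat, so that reads outside those bases would not have been counted.

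CHRD was low in every species. In macaque it had 3.74, 7.78 and 1.94 CPM in calvaria G1, G3 and T1, and 7.43, 11.99 and 5.82 CPM in tibia G2, G4 and T2. The sites overlapped, and the call was at the threshold (log2 fold change -0.91, SE 0.423, n = 3 per site, edgeR adjusted p = 0.198). All 3 assumed pairs had more CHRD in tibia, and with a block for them the log2 fold change was -1.02 (edgeR adjusted p = 0.0195). The call was lost in 10 of the 14 alternatives with all libraries, 2 of which had a stricter threshold, and in 4 of the 6 fits without 1 library, with edgeR or DESeq2 adjusted p up to 0.579. In mouse CHRD had 4.42 CPM in M4 and 0.457 CPM in M8, and 2.54 CPM in M5 and 2.05 CPM in M7. As for NOG, M4 and M8 lay on both sides of the tibia (log2 fold change 0.094, SE 0.777, n = 2 per site, edgeR adjusted p = 0.987). Rat CHRD rested on 9 reads in calvaria and 24 in tibia (log2 ratio -1.54, exact 95% interval from -2.93 to -0.48).

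**Figure D2:**
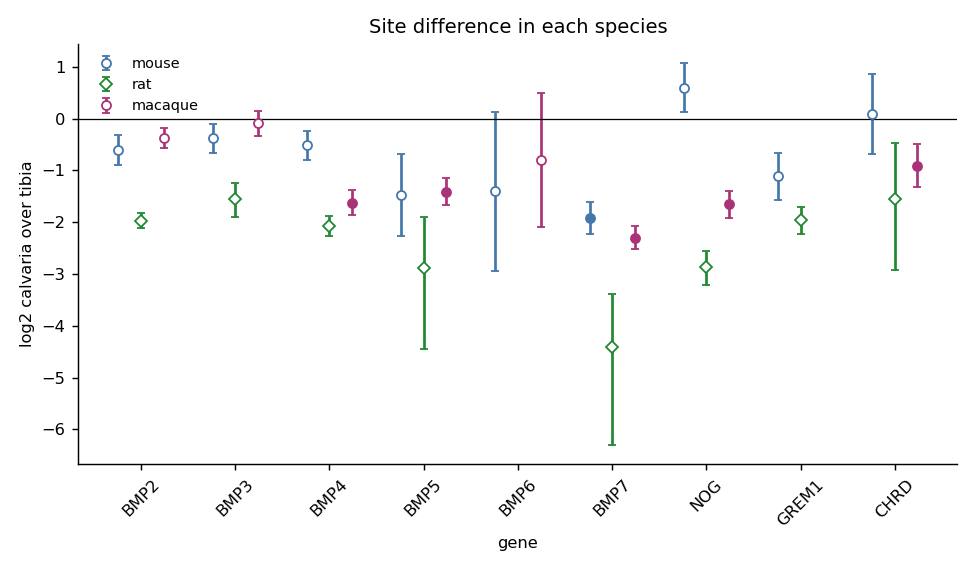
Log2 of calvaria over tibia for each gene in mouse (blue), rat (green diamonds) and macaque (purple), with bars of 1 SE of the edgeR fit in mouse and macaque and exact 95% counting intervals in rat. Filled circles are called, which in mouse holds for BMP7 (-1.92) and in macaque for BMP4, BMP5, BMP7, NOG and CHRD, and values below 0 are higher in tibia; rat BMP6 and macaque GREM1 have no value.

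Counted together, 1 of 9 genes was called in mouse, where 2.28% of the 22339 symbols tested were called and 1.57% were called as higher in tibia. Without M4 it was 8 genes, but 34.4% of all symbols were then called, and without M8 it was 4 genes and 17.6% of all symbols. In macaque 5 of the 8 genes with a read were called, all as higher in tibia, against 19.7% of 18894 symbols called and 9.43% called as higher in tibia. The macaque share of all symbols was larger under filters. It was 31.3% with edgeR's expression filter, where 4 of 7 genes were called. Without genes that had a zero count it was 28.8%, where 4 of 8 were called. In rat 4 genes were past the criterion (BMP4, BMP5, BMP7 and NOG), all higher in tibia, against 9.69% of 19234 symbols in either direction and 8.14% higher in tibia. The tibia libraries lay above all calvaria libraries for 6 of 9 genes in mouse and 4 of 8 in macaque, where 18.4% and 12.1% of all symbols did so. Their median log2 fold change was -0.61 (mouse) or -1.16 (macaque), and their median log2 ratio in rat was -1.97 with BMP6 included. Over all symbols these medians were 0.052, 0.026 and -0.29. With library size alone the median of all macaque symbols moved to -0.18, a shift that carries over to each gene.

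The site effects of mouse and macaque were compared in 1 fit over their 10 libraries, in which 4.89% of 11565 symbols passed. BMP4 passed: its log2 fold change was more negative in macaque by -1.09 (SE 0.335, n = 2 and 3 libraries per site, edgeR adjusted p = 0.172). It did not pass with library size alone (edgeR adjusted p = 0.204) or in 6 of the 10 fits without 1 library, those without M5, M7, G1, G2, G3 or G4 (0.267 to 0.508). NOG had a larger difference with a larger error (-2.23, SE 0.796, edgeR adjusted p = 0.238), and for BMP7 the difference was -0.37 (SE 0.394, edgeR adjusted p = 0.706). The other 5 genes in the fit had adjusted p between 0.718 and 0.980. Species and sequencing channel cannot be told apart, since the macaque libraries were sequenced apart from the rodent ones.

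Levels of different genes were compared per exonic length, as RPKM, the CPM divided by the exonic length in kilobases. In macaque calvaria BMP2 was first (65.3 ± 21.7 RPKM, SD, n = 3) and NOG second (40.8 ± 12.8), with overlapping ranges, and both stood apart from BMP3 (11.7 ± 2.47), BMP4 (6.47 ± 0.980), BMP7 (4.66 ± 1.65) and BMP5 (3.39 ± 0.656). In macaque tibia NOG (129 ± 86.3 RPKM) and BMP2 (84.6 ± 8.75) overlapped, and BMP7 (23.0 ± 1.54) and BMP4 (19.9 ± 3.43) followed with overlap. Among the 8 genes with reads BMP7 had rank 5 in calvaria and rank 3 in tibia. In mouse tibia the order was BMP3 (17.6 ± 3.73 RPKM, SD, n = 2), BMP2 (13.4 ± 0.357), NOG (10.4 ± 0.333), BMP4 (10.2 ± 0.678) and BMP7 (9.38 ± 1.31), of which NOG, BMP4 and BMP7 overlapped. In mouse calvaria NOG, BMP3, BMP2 and BMP4 overlapped with their neighbours and BMP7 (2.48 ± 0.713) stood below them. In rat BMP2, BMP4 and NOG held the first 3 places at both sites, with 9.31, 7.26 and 3.75 RPKM in calvaria and 36.5, 30.5 and 27.5 RPKM in tibia.

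Shares of the summed RPKM of the 6 ligands do not depend on how the libraries were scaled. BMP7 made up 7.79% and 7.46% of it in mouse calvaria M4 and M8 and 17.3% and 18.8% in tibia M5 and M7. In macaque it made up 4.58%, 4.75% and 5.67% in calvaria G1, G3 and T1 and 16.0%, 15.2% and 15.2% in tibia G2, G4 and T2. In rat the share was 0.702% in calvaria and 4.39% in tibia. The share of BMP7 was thus higher in each tibia library than in each calvaria library of the same species. The share of BMP2 in macaque was lower in tibia, with 64.8% to 77.6% in calvaria and 55.1% to 57.9% in tibia. Its mean level was not lower there (207 CPM in calvaria, 268 CPM in tibia), and a share falls when other members of the sum rise. In mouse the share of BMP2 lay between 24.9% and 28.3% at both sites. The share of BMP3 ran from 30.6% to 42.4% over the mouse libraries and from 7.27% to 17.4% over the macaque ones.

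**Figure D3:**
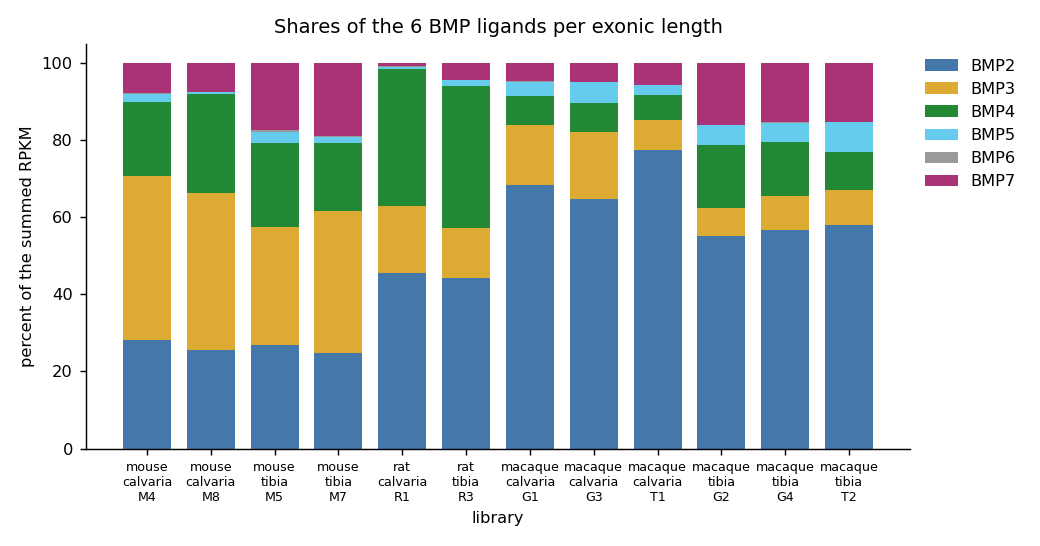
Percent of the summed RPKM of the 6 BMP ligands held by each, in 1 stacked bar per library. BMP7 (purple) takes 7.46% to 7.79% in mouse calvaria and 17.3% to 18.8% in mouse tibia, and 4.58% to 5.67% in macaque calvaria and 15.2% to 16.0% in macaque tibia.

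The antagonists were set against the ligands in the same way. Summed RPKM of NOG, GREM1 and CHRD divided by that of the ligands was 0.386, 0.506 and 0.483 in macaque calvaria G1, G3 and T1 and 0.565, 0.584 and 1.41 in tibia G2, G4 and T2. The tibia values were all above the calvaria values, with GREM1 at 0 reads in both. In rat the ratio was 0.335 in calvaria and 0.479 in tibia. In mouse it was 0.736 in M4 and 0.276 in M8, and 0.312 in M5 and 0.243 in M7, so that M4 was the highest library and M8 lay between the tibia libraries.

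Markers of several cell types moved with the site. In bulk bone, fewer cells of a type and less RNA per cell cannot be told apart. Of the 6 osteocyte markers, 4 were called as higher in tibia in mouse (DMP1, SOST, MEPE and PHEX) and 2 in macaque (MEPE and SOST), and 4 of the 5 with reads were past the criterion in rat. Macaque DMP1 and PHEX did not pass (log2 fold change -0.21 and 0.21, edgeR adjusted p = 0.573 and 0.644). Their summed level was 1041 to 1847 CPM in mouse calvaria and 7622 to 10369 in tibia, 500 and 7242 CPM in rat, and 4917 to 5779 and 7777 to 17530 CPM in macaque. Per 1000 reads of MEPE, a matrix protein gene of osteocytes used here after its values were seen, BMP7 had 36.7 and 35.7 reads in mouse calvaria M4 and M8 and 44.1 and 38.6 in tibia M5 and M7. In macaque it had 2.89 to 5.00 in calvaria and 5.27 to 14.1 in tibia, and in rat 1.37 and 2.37. MEPE in tibia was itself 3.37-fold its calvaria level in mouse, 14.6-fold in rat and 2.64-fold in macaque. A gene that rose less than MEPE therefore comes out lower in tibia on this scale, also where its own level was higher there. Ratios to other osteocyte markers were not made. BMP4 relative to MEPE was lower in tibia in mouse (59.1 and 80.0 against 35.9 and 23.4) and in rat (82.7 against 23.8), and so was BMP2 (130 and 119 against 66.6 and 49.6 in mouse, 135 against 36.3 in rat), while both overlapped between the sites in macaque. NOG relative to MEPE was lower in tibia in mouse (54.5 and 165 against 19.9 and 29.0) and in rat (23.9 against 12.02), and in macaque the sites overlapped (9.73 to 17.5 against 7.85 to 53.8).

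Some blood and marrow markers were called as higher in calvaria. Summed neutrophil markers were 36787 to 60752 CPM in macaque calvaria and 7071 to 14210 in tibia, with 5 of 5 called as higher in calvaria, 90226 to 120317 and 55158 to 62907 CPM in mouse, with 2 of 6 called, and 79474 and 42791 CPM in rat. All 4 erythroid and 3 of 4 megakaryocyte markers with reads in macaque were called as higher in calvaria. In mouse no erythroid, megakaryocyte or B cell marker was called in the edgeR test, and the summed erythroid level overlapped between the sites (903 to 2535 CPM in calvaria, 1250 to 1379 in tibia). In mouse, chondrocyte markers were higher in tibia (956 to 1224 against 146 to 342 summed CPM, 4 of 7 called) and so were adipocyte markers (54.7 to 77.4 against 8.61 to 13.2, 3 of 4 called). In macaque 2 of 3 adipocyte markers and 1 of 6 chondrocyte markers, COL2A1, were called as higher in calvaria. Macaque fibroblast and periosteum markers summed to 903 to 1102 CPM in calvaria and 1125 to 1775 in tibia, and FAP and POSTN were called as higher in tibia (log2 fold change -2.54 and -2.14, edgeR adjusted p = 1.58e-10 and 1.35e-07). In rat, skeletal muscle markers had 6.10 summed CPM in calvaria and 805 in tibia. In mouse they had 1107 to 1830 CPM in calvaria and 328 to 1695 in tibia, with overlap. In macaque they had 1.45 to 5.14 CPM in calvaria and 3.69 to 10.7 in tibia. No osteocyte or neutrophil marker that was listed was at 0 in mouse or macaque. The part of any of these markers in the values of the BMP genes was not tested.

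Other genes of the pathway were taken from lists of ligands, antagonists, proteases (BMP1, TLL1 and TLL2), receptors, coreceptors, SMADs and targets. The ligand list also held activin and inhibin subunits, MSTN, NODAL and GDF15, so that the pathway genes counted here include relatives of the BMPs. Of 72 symbols, 67 had reads in mouse, where 10 were called, all as higher in tibia. In macaque 60 had reads, of which 22 were called as higher in tibia and 1 as higher in calvaria. In rat 13 of 57 were past the criterion, all higher in tibia. The shares of all symbols called or past the criterion, against which these counts stand, were 2.28% in mouse, 19.7% in macaque and 9.69% in rat. The median over these genes was -0.38 in mouse and -0.54 in macaque on the log2 scale, and -1.27 in rat. The mouse count was 2 over symbols with a read in all 3 species and 0 with edgeR's expression filter or without genes that had a zero count, where 12 and 11 of these genes had an unadjusted p under 0.05. Of all symbols, 0.304%, 0.188% and 0.0836% were called in these fits.

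Among the other antagonists, 2 of 14 were called in mouse and 4 of 11 in macaque, and none of 13 was past the criterion in rat. Mouse CHRDL1, a relative of chordin, had 43.4 ± 29.7 CPM in calvaria and 117 ± 2.76 in tibia (SD, n = 2, log2 fold change -1.43, edgeR adjusted p = 0.130). Mouse CRIM1, a membrane protein that binds BMPs, had 40.7 ± 12.2 and 92.5 ± 8.96 CPM (-1.18, edgeR adjusted p = 0.0795). In macaque TWSG1, which binds BMPs and chordin, had 59.4 ± 3.34 CPM in calvaria and 89.7 ± 12.1 in tibia (SD, n = 3, log2 fold change -0.60, edgeR adjusted p = 0.0359). FST, an antagonist of activins, had 22.6 ± 2.40 and 40.2 ± 23.7 CPM (-0.83, edgeR adjusted p = 0.0386).

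The other ligands had 2 of 16 called in mouse, both higher in tibia. BMP8B had 0.102 ± 0.0366 CPM in calvaria and 1.88 ± 0.734 in tibia, and GDF7 had 0.605 ± 0.222 and 3.21 ± 0.782 CPM (SD, n = 2, edgeR adjusted p = 0.0974 and 0.167). The lowest count was 1 read for mouse BMP8B and 7 reads for GDF7. Macaque BMP8B was not called and went the other way (log2 fold change 3.65, edgeR adjusted p = 0.390), with a lowest count of 0 reads. In macaque 2 of 12 were called, a share no higher than the 19.7% of all symbols. INHBA, the activin A subunit, had 221 ± 15.9 CPM in calvaria and 131 ± 10.2 in tibia (SD, n = 3, log2 fold change 0.75, edgeR adjusted p = 0.00308). It was the 1 gene of all these lists called as higher in calvaria. GDF3 had 4.97 ± 2.89 and 12.4 ± 4.52 CPM (-1.31, edgeR adjusted p = 0.0199).

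Of the 8 receptors, 1 was called in each replicated species, which in macaque is no more than the share of all symbols. Mouse BMPR1B, a type I receptor, had 0.0640 ± 0.0905 CPM in calvaria and 2.71 ± 0.730 in tibia (SD, n = 2, edgeR adjusted p = 0.0301). Its lowest count was 0 reads, and 3 reads came to 0.170 to 0.229 CPM in mouse. Macaque BMPR1B was not called (log2 fold change -0.24, edgeR adjusted p = 0.877). Macaque ACVR1, the type I receptor mutated in fibrodysplasia ossificans progressiva, had 23.0 ± 3.65 and 48.7 ± 3.69 CPM (SD, n = 3, log2 fold change -1.08, edgeR adjusted p = 0.000450). Of the 3 proteases, TLL1, which cleaves chordin, was called in macaque at 0.404 ± 0.301 and 3.40 ± 1.13 CPM (SD, n = 3, edgeR adjusted p = 0.00286). Its lowest count was 1 read. In mouse no protease was called in the edgeR test.

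Coreceptors had 2 of 6 called in mouse and 4 of 6 in macaque, and BAMBI, a decoy receptor, was called in both (log2 fold change -2.22 and -0.71, edgeR adjusted p = 0.00151 and 0.00639). Mouse TGFBR3 (-1.27, edgeR adjusted p = 0.0795) and macaque RGMA and RGMB (-1.04 and -1.001, edgeR adjusted p = 0.0765 and 0.127) were higher in tibia too. Of 8 SMAD genes and regulators, 3 were called in macaque, among them the inhibitory SMAD6 (-0.74, edgeR adjusted p = 0.0442) and the signal carrier SMAD5 (-0.56, edgeR adjusted p = 0.0513). Of the 12 targets, 3 were called in mouse (ID4 -2.35, DLX3 -1.41 and ID3 -1.17, edgeR adjusted p = 0.00148, 0.0480 and 0.0531) and 8 in macaque, led by DLX5 (-1.18), DLX3 (-1.01) and MSX1 (-0.79), with edgeR adjusted p = 8.19e-06, 0.00558 and 0.00757. These homeobox and ID genes encode transcription regulators. In rat 5 of 11 targets were past the criterion, among them DLX3 with 143 reads in calvaria and 1435 in tibia.

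**Figure D4:**
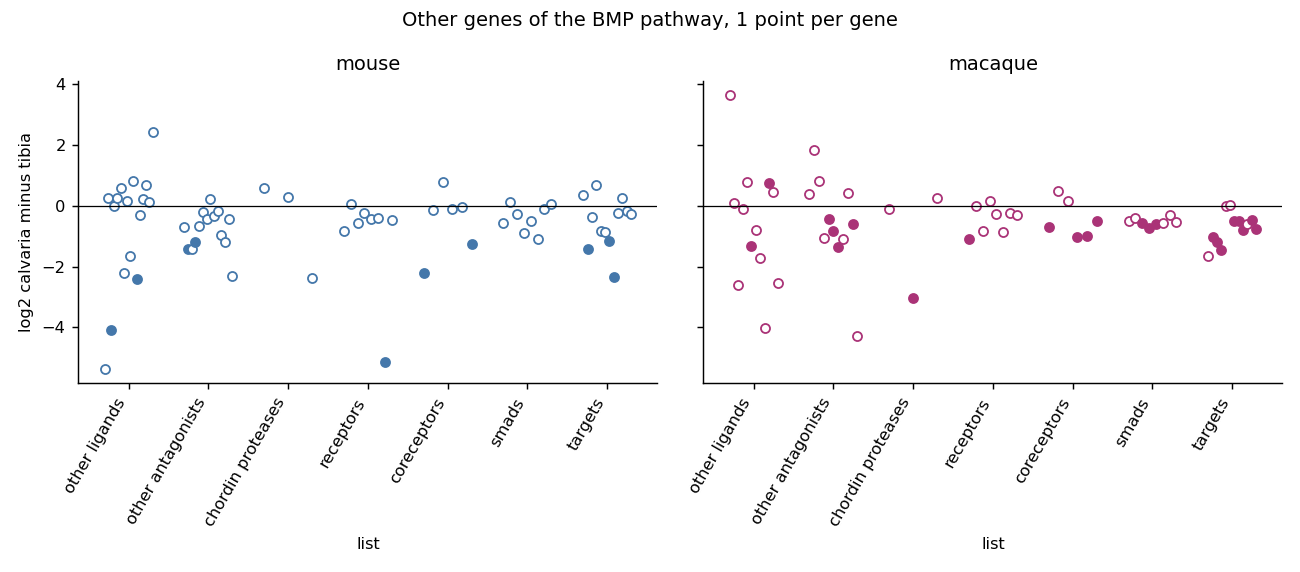
Log2 fold change of calvaria minus tibia for each other pathway gene with reads, by list, in mouse (left) and macaque (right), with called genes filled. All 10 filled points in mouse and 22 of 23 in macaque lie below 0, higher in tibia, and INHBA in macaque lies above.

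For each gene of at least 1 CPM on average in each species, the symbols most alike over the 12 libraries were found by Pearson's r of log2(CPM + 1) centred within species, among 7515 symbols. These values are descriptions over libraries that share site, species and preparation. The rat pair enters r as a single difference between the sites, which weighs more the larger it is. How much of each r came from that pair was not tested. BMP7 was most like EDNRA (r = 0.99), LIMCH1 (0.97) and HOXC10 (0.96), and BMP2 most like TMTC1 (0.99), PTGIS (0.98) and DLX3 (0.98). BMP4 was most like WLS, IFT172 and KCNJ8 (0.98 each), and BMP5 like PRELP (0.98), CALHM2 and SMAD6 (0.96 each). BMP3 was most like PLS3 (0.96), RIT1 and SEPT11 (0.95 each). NOG was most like EHBP1 (0.97), RARG and GLI1 (0.96 each), and CHRD like PTPRU, ARHGEF10L (0.98 each) and IQCC (0.97).

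Within the macaque libraries named with G and those named with T, a difference the labels do not explain, the direction was the same for 7 of the 8 genes with reads. BMP7 in tibia was 5.98-fold its calvaria level among the G libraries and 3.76-fold in the T pair, BMP4 3.66-fold and 2.17-fold, BMP5 1.9975-fold and 4.24-fold, and NOG 2.35-fold and 4.12-fold. BMP3 was the exception, at 0.863-fold and 1.67-fold. With the letter as a batch BMP2, BMP4, BMP5, BMP7, NOG and CHRD were called, as were 24.9% of all symbols.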

How the data were processed

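Polyadenylated RNA was sequenced from pulverised bone that had been freed of periosteum, scraped and digested briefly with collagenase. Rodent calvariae were cut without sutures or diploe, rodent tibias were spun to remove marrow, and macaque bone was sawn. Each mouse library pooled 3 animals and each rat library 2. Reads were mapped to mm10, rn6 and MacaM. The study's methods name HISAT2, whereas the submitters' processing notes name BWA 0.7.10-r789. HTSeq counted reads on merged exons without regard to strand, so that overlapping genes on opposite strands cannot be told apart. As deposited by the authors, the tables hold raw counts per gene and library, a normalized signal by the authors that was the count times 1 constant per library (not used), and exonic lengths.

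Symbols were upper-cased and rows of 1 symbol summed. Rows naming no gene held at most 0.0663% of reads and were left out. Mouse and macaque were fitted separately over all symbols with a read (edgeR 4.0.16 in R 4.3.3, TMM, quasi-likelihood test). The interaction was fitted over symbols with reads in both. Rat ratios used 1 added read. DESeq2 1.42.0 was an alternative. Fits were tested on simulated data. Of the macaque LOC symbols, 5939 received RefSeq names, which changed no BMP gene. Mouse positions are from GENCODE vM21. All 9 genes are named in every library. Of each pathway list, the called genes whose sites did not overlap were named, at most the 3 with the smallest p per species, and for each BMP gene the 3 most alike symbols. One gene named by these rules is left out here. The genes and lists were chosen with earlier results of these data known. No sequences were printed. With macaque pairs assumed from the library names (G1 with G2, G3 with G4, T1 with T2), which the labels do not state, the deviations of paired libraries from their site means correlated at 0.203, 0.282 and 0.446, and other combinations at -0.351 to 0.0898. As a check for duplicate deposits, libraries of a group were compared with counting noise (chi-square per degree of freedom 9.76 to 119.5), and each was counted once.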

Additional observations from a re-analysis of the deposited data

Results flagged for a closer look

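The site effect on BMP4 differed between macaque and mouse in the test of the difference itself: the log2 fold change of calvaria relative to tibia was lower in macaque by -1.09 (edgeR quasi-likelihood interaction test with Benjamini-Hochberg adjustment, adjusted p = 0.172). It did not pass with library size alone (edgeR adjusted p = 0.204), at an FDR of 0.05, or in 6 of the 10 fits without 1 library, those without M5, M7, G1, G2, G3 or G4 (0.267 to 0.508). The sites did not overlap in either species, and tibia was higher in both. No group had enough libraries to test for a library far from the others.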

How the results depend on the processing

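In mouse the count of BMP genes called was 0 over symbols with a read in all 3 species, with edgeR's expression filter and without genes that had a zero count, where 1, 2 and 2 genes had an unadjusted p under 0.05. Under these filters 0.304%, 0.188% and 0.0836% of all symbols were called, against 2.28% when all symbols with a read were tested. DESeq2 with all symbols called 1 BMP gene and 2.14% of the symbols. Leaving out 1 library gave 1 to 8 genes in mouse (8 without M4 and 4 without M8, where 34.4% and 17.6% of all symbols were called) and 4 to 5 in macaque. In the macaque fits without 1 library 12.3% to 26.9% of all symbols were called. In rat 8 genes passed a log2 threshold of 1, as did 31.6% of all symbols. With TMM factors or over symbols with a read in all 3 species 3 genes passed, where BMP4 was at -1.78 and -1.97. Of all symbols, 8.26% and 7.16% passed in these settings. The pathway genes called in mouse came to 2, 0 and 0 under the 3 filters (10, 12 and 11 at an unadjusted p under 0.05). At an FDR of 0.05 they came to 4 in mouse and 13 in macaque, where 0.931% and 10.5% of all symbols were called. Past an absolute log2 fold change of 1.1, 5 of 60 were called in macaque, a share close to the 8.2% of all symbols. The interaction was called for 0 genes with library size alone and at an FDR of 0.05 (2 at an unadjusted p under 0.05 in both), where 5.06% and 0.536% of all symbols passed. With DESeq2 and with a block for the assumed pairs it was called for 2 genes, BMP4 and NOG. Of all symbols, 9.12% and 8.72% passed there. The cause of these changes was not tested.

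With the 2 possible replicate blocks the mouse log2 fold change of CHRD was -0.48 and -0.49, and neither block changed the call of a BMP gene in mouse. With these blocks 7 and 8 pathway genes were called, as were 1.32% and 1.77% of all symbols. In macaque the block added BMP2 and gave 29 pathway genes, 2 of them higher in calvaria, while 25.3% of all symbols were called. Without 1 library the mouse log2 fold change ran from -0.88 to 1.29 for NOG and from -2.34 to 0.93 for CHRD, which was -0.054 without M7, and that of macaque BMP3 from -0.21 to 0.073 (0.055 without T2). The interaction ran from -0.066 to 0.62 for BMP2 (-0.045 without T1), -0.74 to 2.22 for BMP5 (-0.31 without M5, -0.082 without G2, -0.076 without G4, -0.11 without G3), -0.18 to 1.62 for BMP6 and -1.85 to 1.39 for CHRD. BMP4, BMP5, BMP7 and NOG were called in macaque in each alternative run. Among the 9 BMP genes, counts under 10 reads limit BMP6 in each species, BMP5, BMP7 and CHRD in rat calvaria, and BMP5 and CHRD in mouse M8.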
